A study of Homo sapiens with 4 samples.

Results

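The 42 genes examined here encode proteins of mitosis and of the G2/M transition, the step at which a cell that has copied its DNA enters division. They were taken by name from a table of 28482 genes, and all 42 were present and passed the filter on low counts. RNA was sequenced from K562/G01, an imatinib-resistant derivative of K562, an established erythroleukemia line from chronic myeloid leukemia that carries the BCR-ABL1 kinase, the target of imatinib. The cells stably carried 1 of 2 lentiviral constructs, a scramble hairpin or a hairpin against TCF7, a transcription factor that acts with β-catenin in Wnt signalling. Cells of each kind were kept without drug or given 1 μM imatinib for 48 hours. This gave 4 groups, called scramble, knockdown, treated scramble and treated knockdown, with 1 library each. All 4 groups share the resistant line and a lentiviral integration. Parental or uninfected cells were not analysed here, and the labels name 1 hairpin construct against TCF7.

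Entry into mitosis is driven by cyclin-dependent kinase 1 (CDK1) bound to A- and B-type cyclins, and is switched on by CDC25 phosphatases and amplified by Polo-like and Aurora kinases. Chromosomes are then condensed by topoisomerase II and condensin, attached to spindle microtubules through the kinetochore, surveyed by the spindle checkpoint, moved by kinesins and finally separated by cytokinesis. Many of the genes are transcribed late in the cell cycle by the DREAM and MuvB–B-MYB–FOXM1 complexes, which bind a promoter element called the cell cycle homology region, often near CCAAT boxes that bind NF-Y. In bulk RNA, a smaller share of cells in G2 and mitosis and less RNA per such cell cannot be told apart.

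The deposited counts summed to between 30634832 and 34095585 per library, and the 42 genes made up 0.893% of the scramble total, 0.951% of the knockdown total, 0.838% of the treated scramble total and 0.808% of the treated knockdown total. TCF7 had 339, 78, 367 and 117 counts in the same order, so the knockdown libraries held 25.5% of the scramble level without imatinib and 35.1% under imatinib. TCF7 fell in the test over both imatinib states (edgeR's quasi-likelihood test, Benjamini-Hochberg adjusted p = 1.53e-07). The 12 erythroleukemia markers were at 1 CPM (counts scaled to a common library total) or more in all 4 libraries and summed to between 3504 and 3719 CPM. Of the T cell markers 1 of 4 (CD3D) reached that level in all libraries, of the epithelial markers 1 of 4 (EPCAM), and of the B cell, monocyte and fibroblast markers 0 of 4 each. CD3E, CD14 and COL1A2 were below 1 CPM in every library. COL1A1, a fibroblast marker, had 5, 42, 7 and 32 counts in the same order and was higher in both knockdown libraries, and its part in the results was not tested.

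Promoters are shown first, for the genes on which the results turn: the subunits of the NDC80 complex, BUB1 and PLK1. RefSeq sequences (GRCh38.p14) from 250 bases before to 50 bases after the start of transcription were matched for 37 of the 42 genes, 7 of them with more than 1 start. The core of the cell cycle homology region was searched as TTTGAA or, on the other strand, TTCAAA, the box bound by NF-Y as CCAAT or, on the other strand, ATTGG, and the core of the TCF/LEF element as CTTTGA or, on the other strand, TCAAAG. Where a C precedes TTTGAA the first and the last of these overlap. TTTGAA was found for 28 of 37 mitotic genes (75.7%), against 2 of 36 genes of the G1/S phase and DNA replication (5.56%), 13.8% of the genes tested that had a window and 18.2% of all genes with one. It lay within 50 bases of the start in 23 of the 37. CCAAT was likewise found for 28 of 37 mitotic genes (75.7%), against 61.1% of the G1/S genes, 43.4% of the tested and 39.7% of all genes. The TCF/LEF core was found for 3 of 37 (8.11%, in CDK1, NUSAP1 and SMC2), against 12.0% of the tested and 15.5% of all genes. A match describes letters in a window and not binding. Variants of these letters were not searched, so a window without a match may still hold a form of the element.

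**Figure D1:**
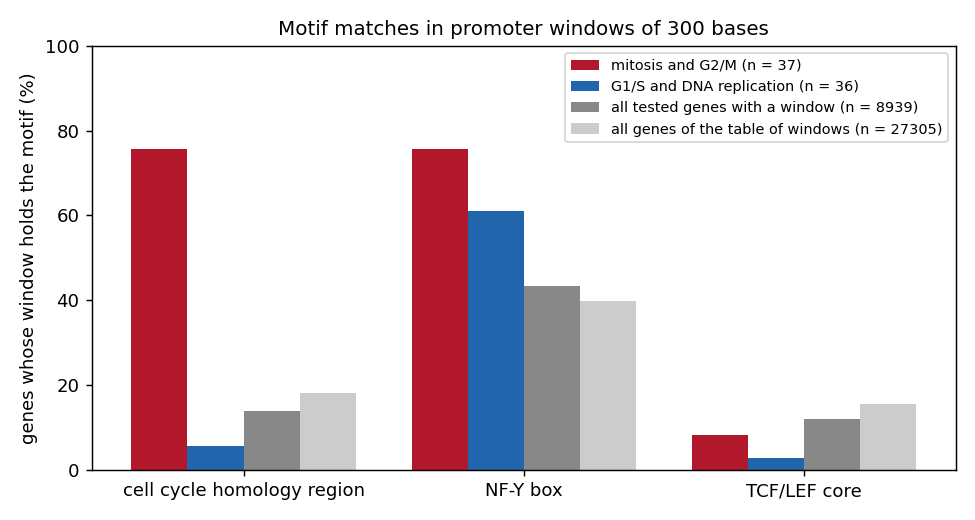
Share of promoter windows (percent, vertical axis) that hold each of the 3 motifs on either strand, for mitosis and G2/M genes, G1/S genes, genes tested and all genes with a RefSeq window. The cell cycle homology region, searched as TTTGAA only, stands at 75.7% of the mitotic genes and 5.56% of the G1/S genes. The TCF/LEF core is found in 8.11% of the mitotic genes.

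The windows below run 5′ to 3′ on the gene's strand from 120 bases before to 30 bases after the RefSeq start (GRCh38.p14). Capitals mark TTTGAA or TTCAAA and CCAAT or ATTGG, and they are shown because NDC80, NUF2 and SPC25 rose with knockdown while the fourth subunit, SPC24, was not called, BUB1 fell and PLK1 rose with imatinib. The intervals are chr18:2571437-2571586 (plus strand) for NDC80, chr1:163321834-163321983 (plus) for NUF2, chr2:168890401-168890550 (minus) for SPC25, chr19:11155753-11155902 (minus) for SPC24, chr2:110678034-110678183 (minus) for BUB1 and chr16:23678769-23678918 (plus) for PLK1.
NDC80: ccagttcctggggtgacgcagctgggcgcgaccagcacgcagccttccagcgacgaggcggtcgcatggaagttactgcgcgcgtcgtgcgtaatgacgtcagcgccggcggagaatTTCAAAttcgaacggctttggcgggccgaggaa
NUF2: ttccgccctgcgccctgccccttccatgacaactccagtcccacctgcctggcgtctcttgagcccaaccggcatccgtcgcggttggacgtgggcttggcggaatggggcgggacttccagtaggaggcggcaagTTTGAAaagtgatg
SPC25: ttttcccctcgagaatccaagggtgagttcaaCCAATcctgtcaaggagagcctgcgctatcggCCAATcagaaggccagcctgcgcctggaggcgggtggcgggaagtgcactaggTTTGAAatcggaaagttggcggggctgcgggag
SPC24: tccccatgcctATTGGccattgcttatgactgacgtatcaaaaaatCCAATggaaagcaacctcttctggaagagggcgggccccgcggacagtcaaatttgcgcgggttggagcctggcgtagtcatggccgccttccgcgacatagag
BUB1: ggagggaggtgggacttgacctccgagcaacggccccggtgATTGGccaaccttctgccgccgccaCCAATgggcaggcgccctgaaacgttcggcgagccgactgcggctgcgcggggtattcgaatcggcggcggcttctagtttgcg
PLK1: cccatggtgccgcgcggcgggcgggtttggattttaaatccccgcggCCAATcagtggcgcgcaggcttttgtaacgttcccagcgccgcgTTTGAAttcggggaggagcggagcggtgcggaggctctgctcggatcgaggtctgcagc

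In these windows NDC80, NUF2, SPC25 and PLK1 hold TTTGAA, NDC80 on the opposite strand. Of the cell cycle homology and CCAAT letters searched, SPC24 and BUB1 hold only CCAAT. The similar letters ttcgaa, which were not searched, stand in the windows of BUB1 and NDC80. Whether BUB1 lacks the element is thus not settled by this search. None of the 6 holds the TCF/LEF core. Across the mitotic genes, the median log2 ratio of knockdown over scramble without imatinib was 0.12 for the 28 genes with TTTGAA and 0.07 for the 9 without, and under imatinib it was -0.02 and 0.01.

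Per length of exon, the most abundant of the 42 transcripts was TOP2A, the topoisomerase that untangles sister DNA, with a mean over the 4 libraries of 156 CPM per kilobase of exon. The condensin ATPase SMC4 (92.7), CDK1 (83.8), cyclin B1 (83.8) and the spindle assembly factor TPX2 (81.5) followed on the same scale. CDC25C, one of the phosphatases that activate CDK1, was lowest at 7.22, with the kinesin KIF23 at 10.3 and Aurora kinase B at 12.2. The ratio of the highest to the lowest library, in CPM, ran from 1.07 for TPX2 to 1.46 for BUB1, with a median of 1.22 against 1.32 over all genes tested. The knockdown library was the highest of the 4 for 24 of the 42 genes, against 24.8% of all genes tested, and the treated knockdown library was the lowest for 23, against 31.9%. The treated scramble library was the highest for 0 of the 42, against 18.5% of all genes tested.

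**Figure D2:**
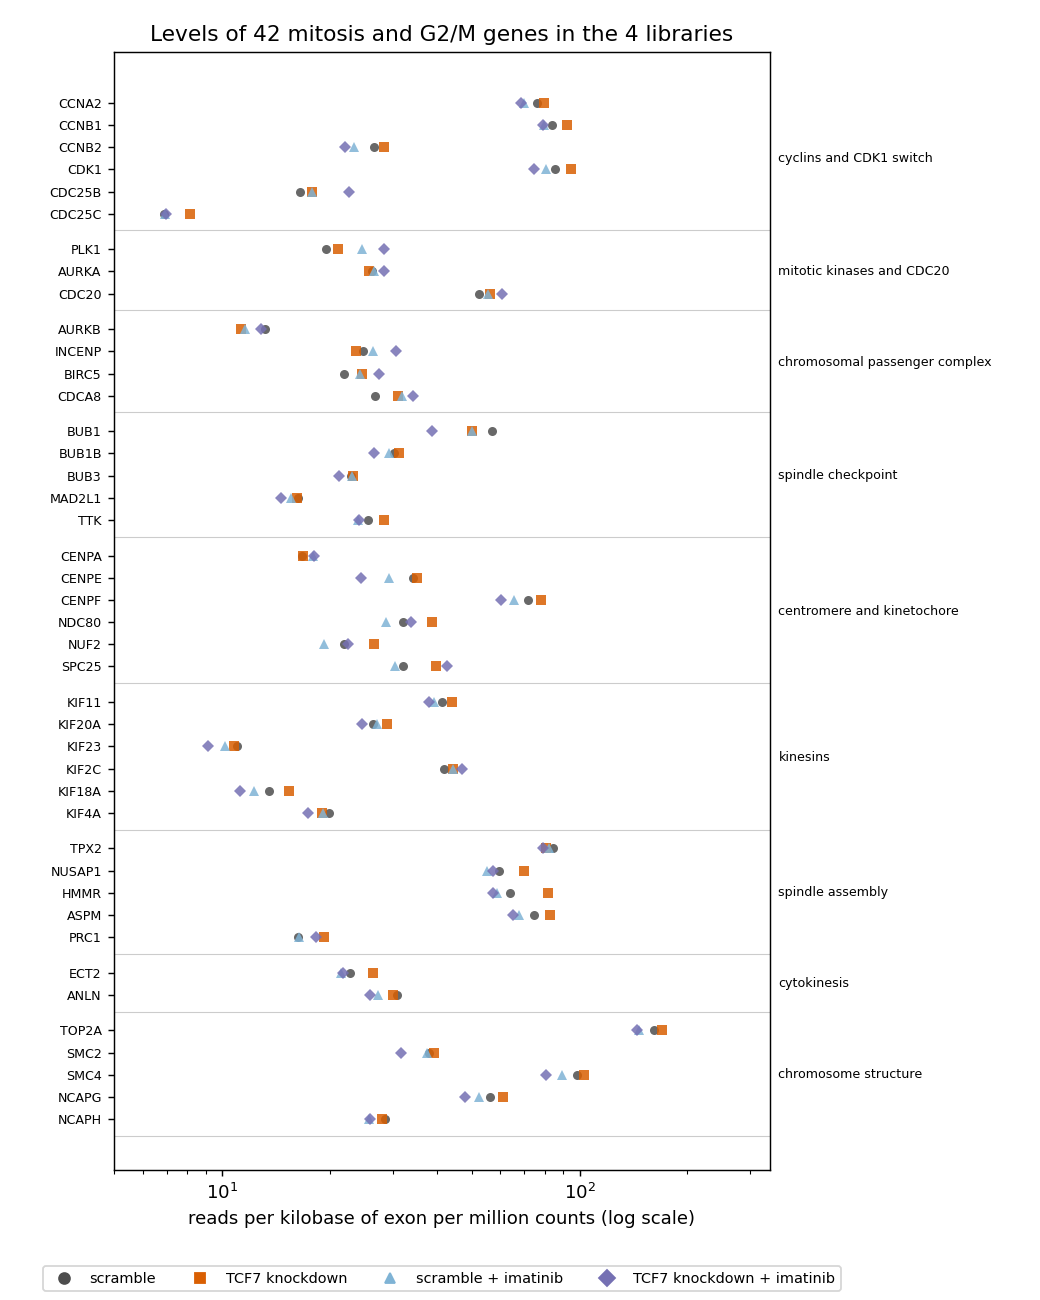
Level of each of the 42 genes in each of the 4 libraries, in CPM per kilobase of exon on a log axis, grouped by role. Points are single libraries, without replicates, and differences between genes are much larger than differences between libraries, from a mean of 7.22 for CDC25C to 156 for TOP2A.

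The first comparison asked what TCF7 knockdown does to these transcripts. The genes called were NDC80, NUF2 and SPC25, which rose, and the checkpoint kinase BUB1, which fell. The first 3 encode subunits of the NDC80 complex, the rod that couples kinetochores to microtubules. This complex was chosen once its values were known, and it was not tested as a group. In edgeR's quasi-likelihood test over all 4 libraries, with both factors in an additive model and Benjamini-Hochberg adjustment over 13296 genes, 3 of 42 rose, 1 fell and 38 were not called at an adjusted p under 0.05. Of all genes tested, 3.8% rose and 3.34% fell, 7.14% in both directions, so the share of mitotic genes called was near the background. At an unadjusted p under 0.05 there were 11 of the 42, and 2577 of all 13296. The calls depend on the model: with all 4 libraries kept and the imatinib term left out, 0 of 42 were called. Fits with 1 library left out also lacked that term, so a loss of calls in them cannot be put down to the missing library. DESeq2 called SPC25 alone, where 0.963% of all genes rose and 1.08% fell, 2.05% in both directions. With trends over GC content and transcript length entered as offsets, 6 rose and 1 fell, against 6.96% and 5.62% of all genes (12.6% in both directions), and CDC25B, HMMR and PRC1 were added.

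The pair ratios, which compare single libraries, were small for most genes. Without imatinib 32 of 42 ratios were above 0 with a median log2 ratio of 0.11, while that of all genes was 0.00. Under imatinib 21 were above 0 and 21 below, with a median of -0.01 against 0.02, and with the GC trend removed this median was 0.03. At 1.5-fold or more there were 0 of 42 in either direction in both pairs, where of all genes 3.67% were higher and 5.51% lower without imatinib, and 5.26% and 4.69% under it.

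**Figure D3:**
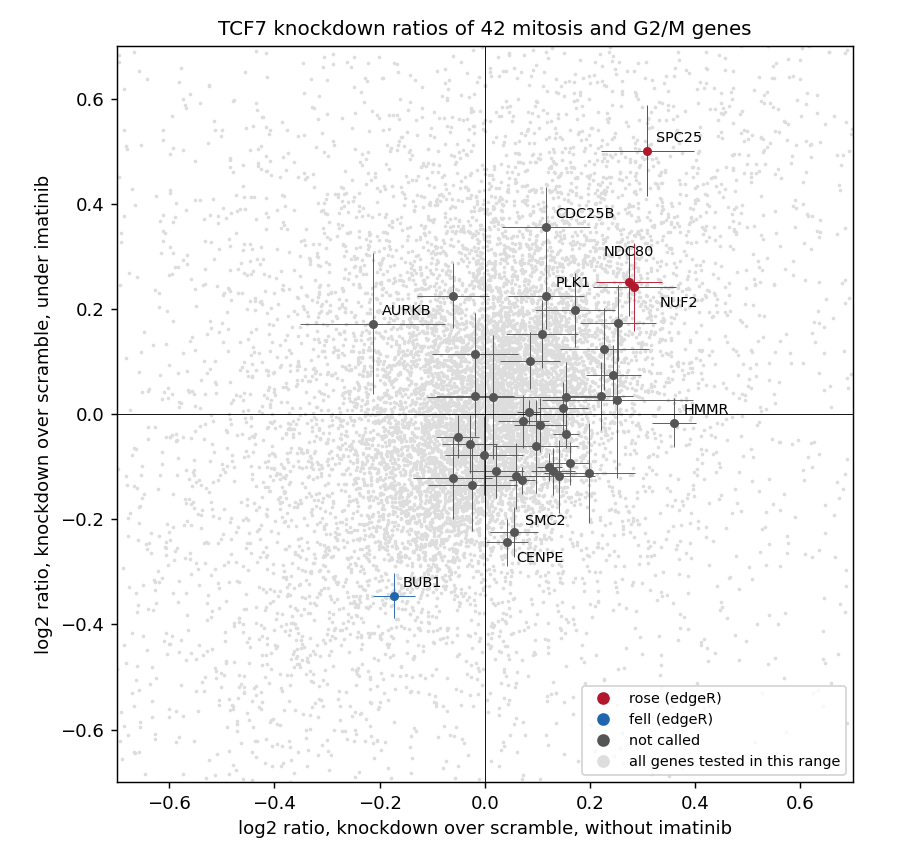
Log2 ratio of knockdown over scramble without imatinib (horizontal axis) and under imatinib (vertical axis) for the 42 genes, over all genes tested in this range in grey. Bars are 95% exact binomial intervals that cover counting error only. SPC25, NDC80 and NUF2 lie above 0 on both axes, BUB1 lies below 0 on both, and HMMR is at 0.36 without and -0.02 under imatinib.

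The kinetochore genes held all 3 that rose. SPC25, a subunit of the end of the NDC80 complex that faces the centromere (chr2:168834132-168913371, GENCODE 29), had 1961, 2233, 1917 and 2491 counts, or 59.2, 72.9, 56.2 and 78.5 CPM, in the scramble, knockdown, treated scramble and treated knockdown libraries, the order used throughout. Both knockdown libraries stood above both scramble libraries. For this and the like statements below, the share of all genes so ordered is not given here. The log2 ratio was 0.31 without imatinib (0.22 to 0.40, 95% interval of counting error) and 0.50 (0.41 to 0.59) with it, and the fitted log2 change was 0.41 ± 0.08 (SE, edgeR adjusted p = 0.00161).

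NDC80, the microtubule-binding subunit that names the complex (chr18:2571511-2616635), had 3827, 4253, 3521 and 3852 counts, or 115, 139, 103 and 121 CPM. Again both knockdown libraries were above both scramble libraries, and the ratios were nearly equal in the 2 drug states at 0.27 and 0.25, with a fitted log2 change of 0.26 ± 0.07 (SE, edgeR adjusted p = 0.0228). NUF2, which pairs with NDC80 (chr1:163266576-163355764) and is given here because it completes the called set, had 73.9, 89.5, 64.9 and 75.7 CPM. Its ratios were 0.28 and 0.24 and its groups also did not overlap (edgeR adjusted p = 0.0385). SPC24, the partner of SPC25 and a member of the wider kinetochore list, had 1713, 1814, 2025 and 2000 counts, with ratios of 0.20 and 0.10 that were not called (edgeR adjusted p = 0.34). DESeq2's adjusted p was 0.042 for SPC25, 0.21 for NDC80 and 0.36 for NUF2. Fits with 1 library left out had knockdown as the only factor, so they also take in part of the imatinib difference. In them the change of NDC80 ran from 0.15 without the knockdown library to 0.37 without the treated knockdown library. That of NUF2 ran from 0.13 to 0.39 with the same libraries left out. For SPC25 it ran from 0.36 without the treated knockdown library to 0.45 without the scramble library. Exons of NDC80 and SPC25 overlapped no other gene and those of NUF2 overlapped RGS5 over 0.149% of their length.

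**Figure D4:**
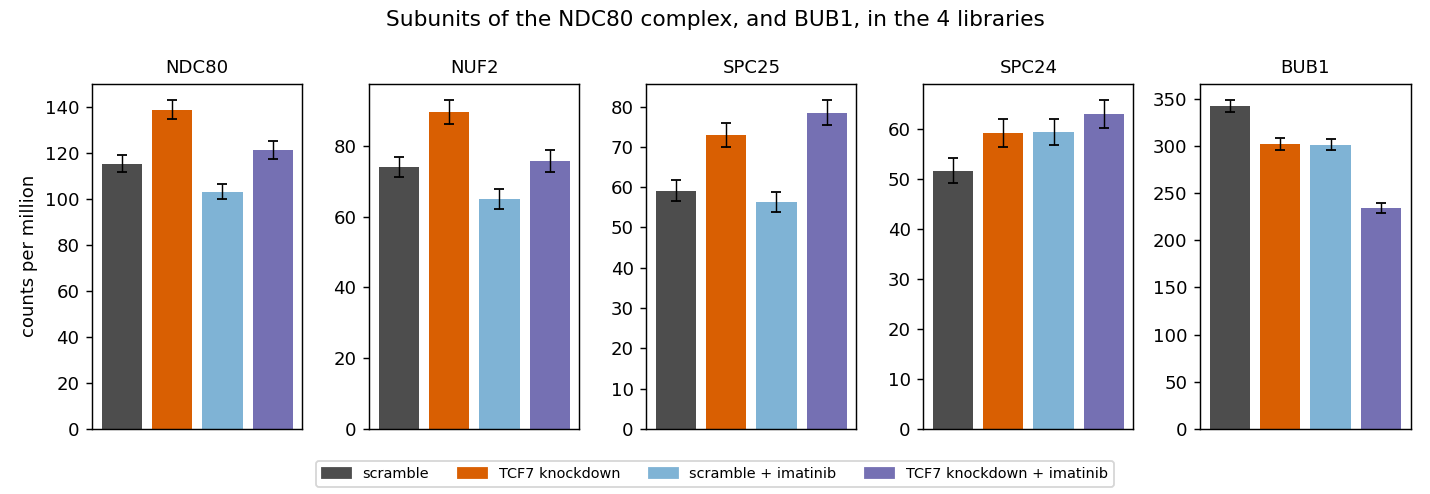
CPM (bar height, axes from 0) in each of the 4 libraries for the NDC80 complex subunits NDC80, NUF2, SPC25 and SPC24, and for BUB1. Error bars are 95% exact Poisson intervals that cover counting error only. For NDC80, NUF2 and SPC25 both knockdown libraries lie above both scramble libraries, and the share of all genes so ordered is not given here.

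The remaining 3 of the 6 centromere and kinetochore genes, CENPA, CENPE and CENPF, were not called for knockdown. CENPA, the histone H3 variant that marks the centromere, was at 33.3, 33.4, 35.6 and 35.9 CPM, with ratios of 0.01 and 0.03. CENPE, the kinesin that carries chromosomes to the spindle equator, was at 323, 331, 278 and 231, with a ratio of -0.24 under imatinib and of 0.04 without it. CENPF, a large protein of the outer kinetochore, was at 841, 910, 768 and 707, with ratios of 0.12 and -0.10.

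Among the 5 spindle checkpoint genes, BUB1 alone was called. BUB1, the kinase that recruits checkpoint and passenger proteins to kinetochores (chr2:110637698-110678114), had 11339, 9239, 10257 and 7417 counts, or 342, 302, 301 and 234 CPM. The groups overlapped slightly, since the knockdown library and the treated scramble library were at nearly the same level. The ratios were -0.17 (95% counting interval -0.21 to -0.13) and -0.35 (-0.39 to -0.30), and BUB1 fell with a fitted log2 change of -0.26 ± 0.07 (SE, edgeR adjusted p = 0.0183). With GC and length offsets the change was also -0.26. DESeq2 did not call it (adjusted p = 0.107). In fits with 1 library left out and knockdown as the only factor, the change was -0.07 without the treated knockdown library, -0.15 without the scramble library and -0.46 without the knockdown library. MAD2L1, the checkpoint protein that holds back CDC20, was at 93.8, 93.2, 89.8 and 84 CPM, with ratios of 0.00 and -0.08. BUB1B, BUB3 and TTK had ratios between 0.02 and 0.15 without imatinib and between -0.12 and 0.03 under it, and none was called.

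Cyclins and the CDK1 switch did not pass the test for knockdown in 6 of 6 genes. Cyclin A2 (CCNA2) was at 213, 222, 196 and 192 CPM, cyclin B1 (CCNB1) at 214, 236, 204 and 203, and cyclin B2 (CCNB2) at 74.7, 79.4, 65.6 and 62. CDK1 itself was at 335, 372, 317 and 293. All 4 were highest in the knockdown library and lowest in the treated knockdown library. Their ratios without imatinib were 0.07, 0.15, 0.10 and 0.16, and under imatinib -0.01, 0.01, -0.06 and -0.09. The phosphatases CDC25B and CDC25C had ratios of 0.12 and 0.25 without and 0.36 and 0.03 under imatinib. CDC25B was called with GC and length offsets only (edgeR adjusted p = 0.0324).

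The mitotic kinases and the activator of the anaphase-promoting complex were not called either. PLK1, the Polo-like kinase, was at 93.2, 100 and 117 CPM and at 135 in the treated knockdown library, with knockdown ratios of 0.12 and 0.22. AURKA, the Aurora kinase of spindle poles, was at 77, 75.6, 77.9 and 83.1, with ratios of -0.02 and 0.11. CDC20, which turns on the anaphase-promoting complex, was at 107, 114, 113 and 124, with ratios of 0.11 and 0.15.

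In the chromosomal passenger complex, which corrects wrong attachments, 0 of 4 genes were called. AURKB, its kinase, was at 29.5, 25.3, 26 and 28.9 CPM. Its ratio was -0.21 in untreated cells (95% counting interval -0.35 to -0.08) and 0.17 (0.04 to 0.31) in treated cells. INCENP, the scaffold, was at 111, 106, 119 and 137, with ratios of -0.06 and 0.23. BIRC5 (survivin) and CDCA8 (borealin) had ratios of 0.17 and 0.23 without and 0.20 and 0.12 under imatinib.

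Spindle assembly genes had the highest median ratio of the role groups without imatinib, 0.24, and -0.02 under it. With the GC trend removed these medians were 0.20 and 0.10, and 4 of the 5 genes were above 0 under imatinib instead of 2. HMMR, a microtubule-binding protein of spindle poles (chr5:163460203-163491945), was at 251, 320, 232 and 226 CPM. It stood apart only in the knockdown library, with a ratio of 0.36 (95% counting interval 0.32 to 0.40) in untreated and -0.02 (-0.06 to 0.03) in treated cells, and it was not called (edgeR adjusted p = 0.196), though it was with GC and length offsets (adjusted p = 0.0154). PRC1, the bundler of midzone microtubules, was at 89.9, 106, 91 and 101 with ratios of 0.25 and 0.17 and was likewise called only with offsets (edgeR adjusted p = 0.0118). NUSAP1, which stabilises spindle microtubules, was at 171, 202, 158 and 164. ASPM, a spindle pole protein whose loss causes microcephaly, was at 813, 900, 738 and 709. TPX2, the activator of Aurora A, was at 303, 291, 297 and 284, and its knockdown ratios were -0.05 and -0.04.

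Kinesins, cytokinesis and chromosome structure contributed 0 called genes of 13. KIF11, the motor that separates spindle poles, was at 200, 214, 190 and 185 CPM. KIF18A, which dampens chromosome movements, was at 63, 71.9, 57.4 and 52.4. The other 4 kinesins, KIF20A, KIF23, KIF2C and KIF4A, had knockdown ratios from -0.06 to 0.14 without and from -0.13 to 0.10 under imatinib. ECT2, the exchange factor that activates RhoA at the cleavage furrow, was at 125, 145, 118 and 119, and anillin (ANLN), the furrow scaffold, at 186, 181, 164 and 156. TOP2A was at 1039, 1094, 944 and 933, SMC4 at 832, 868, 754 and 682, and NCAPG, a regulatory subunit of condensin, at 276, 301, 257 and 235. For SMC4 and NCAPG the knockdown library was the highest and the treated knockdown library the lowest. Exons of NCAPG overlapped LCORL on the opposite strand over 33.1% of their length and those of SMC4 overlapped TRIM59 over 18.5%, so their counts are less certain where counting ignored strand. SMC2 and NCAPH had ratios of 0.06 and -0.02 without and -0.22 and 0.03 under imatinib.

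The second comparison concerned imatinib, which these cells resist. In the fit without a GC term 2 genes rose, PLK1 and INCENP, 14 fell and 26 were not called (edgeR's quasi-likelihood test). Of all genes tested, 13.8% rose and 7.08% fell, 20.9% in both directions. The genes that fell were CENPE, HMMR, BUB1, CENPF, SMC4, ASPM, KIF18A, CCNB2, NCAPG, CDK1, NUSAP1, ANLN, NUF2 and TOP2A. GC content moved with these calls. With GC and length offsets 0 of the 42 fell and 1 rose, SPC25, which had not been called without them, against 1.36% and 4.36% of all genes (5.72% in both directions). DESeq2 without a GC term called 1 that rose and 5 that fell, against 5.73% and 1.81% (7.54% in both directions). At 1.5-fold or more there were 0 of 42 in either direction in both kinds of cell, where of all genes 4.4% were higher and 2.37% lower in scramble cells, and 11.7% and 3.74% in knockdown cells. With all 4 libraries kept and the knockdown term left out, 0 of 42 were called. Fits with 1 library left out also lacked that term, so a loss of calls in them cannot be put down to the missing library. At an unadjusted p under 0.05 there were 26 of 42 (61.9%) without and 9 (21.4%) with the offsets, against 34.4% and 18.2% of all genes, so that with the offsets the share was near the background.

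Of the 42 genes, 29 had a GC content below 47.3%, the median of all genes tested, and 14 of these fell and 0 rose. Of the 13 at or above it 2 rose and 0 fell. The shares called among all genes of each GC class are not given here, so these counts describe the 42 genes only. Median imatinib ratios were -0.13 in scramble and -0.24 in knockdown cells for the low-GC genes, and 0.07 and 0.11 for the high-GC genes. Across the 42 genes, Spearman's rho between GC content and the ratio was 0.61 in scramble and 0.77 in knockdown cells, where all 13255 genes with a GC value gave 0.57 and 0.66. These correlations are across genes of the same libraries and describe them only. With the trend removed rho was -0.05 and 0.22. The median ratio of the 42 moved from -0.09 to 0.01 in scramble cells and from -0.22 to -0.02 in knockdown cells, and over all genes it was 0.02 and 0.06 with the trend removed.

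**Figure D5:**
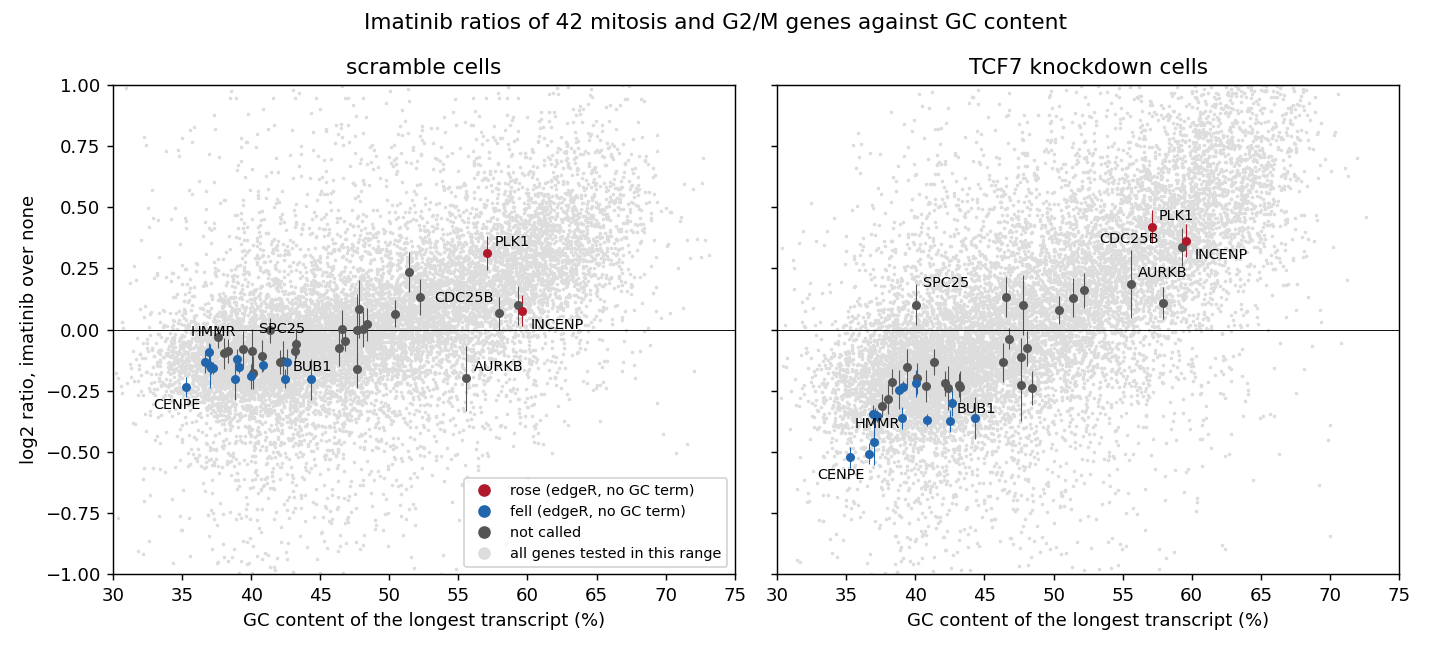
Log2 ratio of imatinib over none (vertical axis) against the GC content of the longest transcript (percent, horizontal axis) for the 42 genes, in scramble cells (left) and knockdown cells (right), over all genes tested in this range in grey. Bars are 95% exact binomial intervals that cover counting error only. The genes that fell lie below 47.3% GC and the 2 that rose above it, and the grey points slope the same way.

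PLK1 (chr16:23677656-23690367, GC content 57.1%) had 3088, 3077, 3986 and 4277 counts. Both imatinib libraries stood above both libraries without it, with log2 ratios of 0.31 (95% counting interval 0.24 to 0.38) in scramble and 0.42 (0.35 to 0.49) in knockdown cells and a fitted change of 0.37 ± 0.08 (SE, edgeR adjusted p = 0.000651). With the GC trend removed both ratios were 0.15, and with offsets it was not called (edgeR adjusted p = 0.138). INCENP (59.6% GC) had ratios of 0.08 and 0.36 (adjusted p = 0.0409 by edgeR), which became -0.14 and -0.01 with the trend removed. Its fitted change was 0.22 in the additive fit. In fits with imatinib as the only factor, which also take in part of the knockdown difference, it was 0.11 without the treated knockdown library. Without the treated scramble library it was 0.33.

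CENPE (chr4:103105806-103198409, GC content 35.3%, the lowest of the 42) had the largest fall, with ratios of -0.24 for scramble and -0.52 for knockdown cells and a fitted log2 change of -0.38 ± 0.07 (SE, edgeR adjusted p = 0.000352). With the trend removed these ratios were -0.08 and -0.20, and with offsets the fitted change was -0.14 and not called (edgeR adjusted p = 0.142). All fits of this paragraph with a library left out had imatinib as the only factor, so they also take in part of the knockdown difference. Without the treated knockdown library the change of CENPE was -0.25. HMMR followed at -0.13 and -0.51, which became 0.02 and -0.22. Its fitted change was -0.32 in the additive fit, and in the 1-factor fits -0.13 without the knockdown library and -0.50 without the scramble library. BUB1, already lower with knockdown, had ratios of -0.20 and -0.37, and -0.07 and -0.18 with the trend removed. Its fitted change of -0.29 was -0.11 without the treated knockdown library, -0.19 without the scramble library and -0.46 without the treated scramble library. CCNB2 had -0.20 and -0.36, and kept -0.10 and -0.21. For CDK1, TOP2A and INCENP the fitted change turned sign with the offsets, to 0.01, 0.02 and -0.08.

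SPC25 (40.0% GC) was at -0.09 in scramble and 0.10 in knockdown cells before and at 0.08 and 0.36 after the trend was removed. It rose with offsets by a fitted log2 change of 0.22 ± 0.07 (SE, edgeR adjusted p = 0.0412), and without them the change was 0.01. Proliferation marker MKI67, from the wider lists, had 28657, 27088, 28762 and 25861 counts and was not called for either factor.

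The knockdown ratio was lower under imatinib than without it for 30 of the 42 genes (71.4%), against 47.5% of all genes tested. With the GC trend removed it was lower for 27 (64.3%), against 44.3%. Across the 42 genes, Spearman's rho between GC content and the knockdown ratio was -0.22 without and 0.49 under imatinib, where all genes gave -0.09 and 0.29. The difference between ratios has no residual error of its own in a design of 4 libraries, and it was not tested. Before the trend was removed the largest downward differences were those of HMMR, KIF18A, CENPE and SMC2, and after it those of KIF20A (-0.26), HMMR (-0.23) and CDC25C (-0.22). The largest upward one was that of AURKB both before and after.

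The wider machinery was read from lists of 115 further genes, of which 114 were tested. For knockdown 2 rose and 0 fell (edgeR, same fit), where 3.8% and 3.34% of all genes did. ZWINT, which docks the checkpoint complex RZZ at kinetochores, had 3834, 4270, 3963 and 4733 counts, and its ratios were 0.28 and 0.38 (adjusted p = 0.00339 by edgeR). CDKN1B, the CDK inhibitor p27, had 861, 1092, 1115 and 1217 counts, and its ratios were 0.46 and 0.25 (adjusted p = 0.0285 by edgeR). In both genes the knockdown library exceeded its scramble partner in each drug state. With GC and length offsets 5 rose, with PKMYT1, CENPP and KIF22 added. By list, 1 of 29 other kinetochore genes and 1 of 13 CDK1 regulators rose, and 0 of 12 transcription regulators, 17 anaphase-promoting complex genes, 15 cohesin and separase genes, 4 condensin subunits and 24 spindle and cytokinesis genes. The median ratios of the 114 genes were 0.06 without and 0.04 under imatinib.

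For imatinib 20 of the 114 rose and 19 fell without a GC term, and 4 rose and 0 fell with it. Of all genes 13.8% rose and 7.08% fell without it and 4.36% and 1.36% with it, so the 4 are no more than the background share. They were UBE2S, the ubiquitin-conjugating enzyme of the anaphase-promoting complex, CDCA5 (sororin), which protects cohesin, the PP2A inhibitor ENSA and the kinetochore gene NSL1. UBE2S was at 112, 108, 155 and 191 CPM, where the log2 imatinib ratio was 0.46 for scramble and 0.81 for knockdown cells (edgeR adjusted p = 1.1e-11 with offsets), and both imatinib libraries stood above both others. CDCA5 was at 64, 69.6, 81.9 and 96, with ratios of 0.34 and 0.46 (adjusted p = 0.0112 with offsets). The activators of G2/M transcription FOXM1 and MYBL2 rose without a GC term (edgeR adjusted p = 0.0284 and 0.00184), and with offsets their changes were 0.09 and 0.00 and were not called.

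The 43 genes of the G1/S transition and DNA replication were the nearest comparison. For knockdown 4 of them rose, among them MCM6, GINS4 and TK1, and 0 fell (edgeR, same fit), where 3.8% and 3.34% of all genes did. Their median ratios were 0.12 without and 0.13 under imatinib, whereas those of the 42 mitotic genes were 0.11 and -0.01. The lists differ in GC content, with medians of 48.7% and 42.4%, and once the trend was taken out the median ratios stood at 0.11 and 0.09 for the G1/S genes and 0.08 and 0.03 for the mitotic genes. Their share of counts was 0.548%, 0.591%, 0.565% and 0.592% in the 4 libraries, so that the knockdown libraries were the higher in both drug states, and for the mitotic genes that held only without imatinib. The difference between the lists was not tested. For imatinib 11 of the G1/S genes rose and 1 fell without a GC term, where 13.8% and 7.08% of all genes did. With it 1 rose, UNG, and 0 fell, against 4.36% and 1.36% of all genes.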

How the data were processed

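RNA was depleted of ribosomal RNA and made into libraries with a directional kit, per the labels' protocols. The submitters' processing notes name HISAT2, HTSeq 0.6.1, FastQC and the genome build GRCh38, while the annotation release and strand setting were not given in the sources used here. Whole read counts per gene were used as the authors deposited them. Deposited columns named FPKM were handled as a score, since 6 genes have negative values, and served 1 alternative.

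Identifiers were matched to GENCODE 29 for positions, exon length and GC content of the longest transcript (13255 of 13296 tested genes). Genes that reached 1 CPM in 2 or more libraries were tested with edgeR 4.0.16 (R 4.3.3, TMM), knockdown and imatinib additive, which leaves 1 residual and 33.7 prior degrees of freedom. A gene was called at a Benjamini-Hochberg adjusted p under 0.05. Ratios were taken between CPM values after TMM scaling, with 2 added as prior count, and their exact binomial intervals cover counting error only, reads being no independent molecules. GC and length trends came from mgcv 1.9.3. Alternatives used DESeq2 1.42.0, limma 3.58.1, other scalings and filters, thinning, 1-factor fits and 1-factor fits with each library left out. Data were also simulated for knockdown over scramble with 13296 genes. There edgeR recovered 4 of 50 genes changed 1.25-fold, 32 of 50 changed 1.5-fold and 48 of 50 changed 2-fold. The changed genes were drawn from all genes tested, with the same dispersion set for every gene, and most changes of 1.25-fold were missed. Recovery was not simulated for the 42 genes, so these shares may not hold for them. Among the 42, BUB1, NDC80 and NUF2 were called at fitted log2 changes of -0.26, 0.26 and 0.26. A gene that was not called may still have changed.

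The labels do not say whether cultures were infected or treated separately, so differences between these libraries may be technical. With 1 library per group, no p-value measures a spread between replicates. The 1 residual degree of freedom in edgeR is the departure from additive effects, moderated by the 33.7 prior degrees of freedom taken over all genes. A knockdown effect that differs between drug states therefore counts as error in these tests. The members and lists were chosen with earlier results of these data known. Values in full are given for the 15 genes with the smallest adjusted p in either test and for 21 listed genes, 28 in all, and of the lists for genes called with knockdown or, with offsets, with imatinib. NUF2, SPC24, MKI67, FOXM1, MYBL2 and the other genes outside this rule were named after their values were seen. Some genes of the lists are not reported here by name.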

Additional observations from a re-analysis of the deposited data

Results flagged for a closer look

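The knockdown ratio had opposite signs in the 2 drug states in 19 of the 42 genes (45.2%), against 37.5% of all genes tested, and with the GC and length trend removed in 17 (40.5%), against 35.2%. In 10 of them (23.8%, against 6.31% of all genes, which were not matched on counts) both 95% counting intervals also excluded 0, and these 10 are listed. None of these differences was tested. The difference is the log2 knockdown ratio under imatinib minus that without it. It was -0.25 for CDK1 (from 0.16 to -0.09), -0.29 for CENPE (0.04 to -0.24), -0.22 for CENPF (0.12 to -0.10), -0.26 for KIF20A (0.14 to -0.12) and -0.31 for KIF18A (0.20 to -0.11). For ASPM it was -0.19 (0.15 to -0.04), for SMC2 -0.28 (0.06 to -0.22), for SMC4 -0.20 (0.07 to -0.13) and for NCAPG -0.24 (0.13 to -0.11). AURKB went the other way, at 0.38 (-0.21 to 0.17), and the same 0.38 separates its imatinib ratio in scramble cells (-0.20) from that in knockdown cells (0.19).

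With the GC and length trend removed, 8 of the 10 differences were smaller by more than 1.5 times. They were then -0.12 for NCAPG (0.09 to -0.03), -0.11 for CDK1 (0.09 to -0.03), -0.13 for CENPE (0.04 to -0.09), -0.17 for KIF18A (0.14 to -0.03), -0.14 for SMC2 (0.03 to -0.11) and -0.06 for SMC4 (0.04 to -0.02). CENPF, at -0.13 (0.14 to 0.02), and ASPM, at -0.05 (0.16 to 0.11), had the same sign in both drug states. KIF20A was at -0.26 (0.13 to -0.13) and AURKB at 0.31 (-0.22 to 0.09). The imatinib ratio of AURKB was then -0.31 in scramble and 0.00 in knockdown cells.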

How the results depend on the processing

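Depth was even over the libraries, and 1 library per group limits every call. No paired analysis was possible because each group has 1 library and the labels give no shared replicate numbers. For knockdown, the 949 genes called became 1673 with GC and length offsets, 272 with DESeq2, 195 with limma on the deposited FPKM plus 0.1, 496 after thinning to the smallest library (1 random draw) and 0 without the imatinib term. The 4 mitotic genes became 7, 1, 0, 1 and 0 in the same order. Leaving out 1 library gave 34 to 759 genes and 0 to 1 mitotic genes. For imatinib, the 2780 genes called became 761 with offsets, 1003 with DESeq2, 1094 with limma and 0 without the knockdown term, and 0 to 579 with 1 library left out. The 16 mitotic genes became 1 with offsets, 6 with DESeq2, 2 with limma, 8 after thinning and 0 without the knockdown term, and 0 to 3 with 1 library left out. Fits without the other factor have fewer terms, and fits with 1 library left out have fewer samples and also lack the other factor. The cause of the other differences was not tested. With the GC trend removed the median imatinib ratio moved from -0.0899 to 0.0147 in scramble and from -0.222 to -0.0221 in knockdown cells. With offsets the imatinib changes of CDK1 (0.0094), INCENP (-0.0755) and TOP2A (0.0151) turned sign. DESeq2 size factors kept all 4 knockdown and 16 imatinib calls among the mitotic genes, and total-count scaling kept 4 and 15.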
